A study of Homo sapiens with 6 samples.

Results

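The transcription factors described here are 9 genes known for driving or maintaining mesenchymal states: SNAI1, SNAI2 and SNAI3 of the Snail family, TWIST1 and TWIST2, ZEB1 and ZEB2, and the paired-type homeobox genes PRRX1 and PRRX2. They were chosen by symbol, through the Entrez gene IDs of the table, and make up 9 of its 25702 genes. All 9 were present in the table, and 7 had a mean of 10 or more and entered the test. TWIST2 and PRRX2 were too low.

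The libraries came from RMS13, an established human rhabdomyosarcoma line, that is, tumour cells with features of skeletal muscle precursors. There were 3 libraries of cells treated with a siRNA against GLI1 (siGLI1) and 3 of cells treated with a non-targeting siRNA (siNT2), all after 72 h with the siRNA. All cells were grown in RPMI medium with fetal bovine serum. Nothing in the labels ties the 3 libraries of a group to separate cultures. The p-values therefore rest on library-to-library spread that may be technical, and all 6 libraries represent 1 cell line.

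Snail and ZEB proteins are zinc finger repressors that bind E-box DNA, typically CAGGTG, and are best known for silencing epithelial adhesion genes such as CDH1. TWIST proteins are basic helix-loop-helix factors that pair with E proteins, and PRRX proteins are homeobox factors of limb and craniofacial mesenchyme. In muscle precursors, SNAI2 is known to occupy E-boxes that MYOD1 also uses. ZEB1 and ZEB2 form a mutually repressive loop with the miR-200 microRNAs, which pair with sites in the ZEB 3′ UTRs.

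Those sites are shown because they set ZEB1 and ZEB2 apart from the other 7 members in sequence. The mature microRNAs, from RefSeq on GRCh38.p14, fall into 2 groups by seed, bases 2 to 8 counted from the 5′ end, which is in capitals.
hsa-miR-200b-3p: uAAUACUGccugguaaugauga
hsa-miR-200c-3p: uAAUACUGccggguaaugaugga
hsa-miR-429: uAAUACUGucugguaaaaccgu
hsa-miR-200a-3p: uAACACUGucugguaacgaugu
hsa-miR-141-3p: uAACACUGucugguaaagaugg
The first 3 share the seed AAUACUG and the other 2 share AACACUG.

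The complements of these seeds, CAGTATT and CAGTGTT, were searched in the 3′ UTR of each member's transcript with the longest coding sequence (GENCODE 29, GRCh38, transcript strand). ZEB1 held 9 sites in 2549 bases, 6 of CAGTATT and 3 of CAGTGTT, and ZEB2 held 9 in 5370 bases, 5 and 4. SNAI2 held 1, and the other 6 members held 0, PRRX1 with 3233 bases of 3′ UTR among them. Among 13174 tested genes with a 3′ UTR, 28.5% held at least 1 such site, 67.7% of those with 2500 bases or more did, and 5 genes held 9 or more. The sites below, in capitals, show that the flanking bases differ from site to site, for ZEB1 (plus strand) at chr10:31527622-31527650, chr10:31528496-31528524 and chr10:31528786-31528814 and for ZEB2 (minus strand) at chr2:144388979-144389007, chr2:144388621-144388649 and chr2:144389226-144389254.
ZEB1 site 1: ttttatcttatCAGTATTatcactcttat
ZEB1 site 5: tttttacctatCAGTATTattttatttct
ZEB1 site 7: atttgatttaaCAGTGTTatgttaacatt
ZEB2 site 3: ctacaatgcatCAGTATTatgattcctct
ZEB2 site 6: agcacccatgtCAGTATTagaagaatagg
ZEB2 site 1: aaaattttgtaCAGTGTTaaggcctaaaa
The genes of these 5 microRNAs had at most 1 read in any library. MIR200A had 1.1, 0.0 and 1.0 normalised read counts (reads divided by a size factor for each library) in siGLI1 libraries and 0.0 in each siNT2 library. MIR200B, MIR429 and MIR141 stayed at or below 1.0 in every library, MIR200C was at 0 in all 6, and MIR205HG stayed at or below 2.2. These libraries do not measure mature microRNAs. The seed complement of miR-34a, a microRNA known to target SNAI1, is CACTGCC, and it had 1 site each in the 3′ UTRs of SNAI1, SNAI3 and ZEB1 and 0 in the other 6 members, against 15.2% of the 13174 UTRs.

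E-boxes of the form CAGGTG or its complement CACCTG were searched in promoter windows of 300 bases (250 before to 50 after a start) from RefSeq, GRCh38.p14, on both strands. Of the 9 members, 5 had a window there (TWIST2, ZEB1, ZEB2, PRRX1 and PRRX2), with 11 windows in all, 7 of them for ZEB1. A ZEB1 window at chr10:31318966-31319265, plus strand, held 3 E-boxes, another ZEB1 window held 1 and the other 9 windows held 0. Of all 35116 windows, 20.6% held at least 1 and 0.635% held 3 or more. The window of CRB3, an epithelial polarity gene known as a Snail and ZEB target, at chr19:6464021-6464320, plus strand, held 5, a number that 0.094% of windows reached. It is shown for comparison, with the E-boxes of both windows in capitals.
ZEB1 window: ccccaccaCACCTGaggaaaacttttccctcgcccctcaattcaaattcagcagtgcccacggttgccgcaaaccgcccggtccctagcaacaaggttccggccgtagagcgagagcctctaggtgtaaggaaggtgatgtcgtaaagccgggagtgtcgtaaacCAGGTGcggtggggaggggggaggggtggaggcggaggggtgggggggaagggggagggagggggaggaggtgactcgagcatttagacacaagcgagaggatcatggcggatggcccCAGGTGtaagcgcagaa
CRB3 window: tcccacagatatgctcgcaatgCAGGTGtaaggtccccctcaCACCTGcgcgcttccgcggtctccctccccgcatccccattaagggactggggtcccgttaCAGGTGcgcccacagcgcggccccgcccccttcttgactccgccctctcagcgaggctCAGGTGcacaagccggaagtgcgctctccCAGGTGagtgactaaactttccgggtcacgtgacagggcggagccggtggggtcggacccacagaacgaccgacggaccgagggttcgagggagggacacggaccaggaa
The GLI motif GACCACCCA, or TGGGTGGTC on the other strand, was in 0 of the 11 member windows and in 0.236% of all windows.

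The libraries held 13784642, 14312681 and 15477041 assigned reads in siGLI1 cells and 13673977, 15498340 and 18947614 in siNT2 cells. GLI1, the targeted gene, was at 579.9, 905.8 and 1274.1 normalised read counts in siGLI1 libraries and at 11962.5, 17836.9 and 12774.1 in siNT2 libraries. Every siGLI1 library was far below every siNT2 library, and GLI1 fell by 4.00 on the log2 scale (limma adjusted p = 0.000425). Of 15622 genes tested, 7.21% were called higher and 8.0% lower, that is, at a Benjamini-Hochberg adjusted p under 0.05 over all tested genes. The median log2 fold change over these genes was -0.01 and over the 7 tested members 0.66. Muscle line markers were abundant in all libraries, summing to 48813 to 73669 in siGLI1 and 43990 to 61632 in siNT2 cells.

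Of the 7 tested members, SNAI1 alone was called higher at the table-wide threshold and 0 were called lower. The count of lower members was also 0 at an unadjusted p under 0.05 and with edgeR, DESeq2 and limma's voom with library weights, whereas 3 members, SNAI1, ZEB1 and ZEB2, were higher at an unadjusted p under 0.05 with limma, beside 15.3% of all tested genes higher and 16.3% lower at that threshold. Without siGLI1 replicate 3 the higher members numbered 3, namely those 3 genes. They numbered 0 without siGLI1 replicate 2, siNT2 replicate 1 or siNT2 replicate 3.

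**Figure D1:**
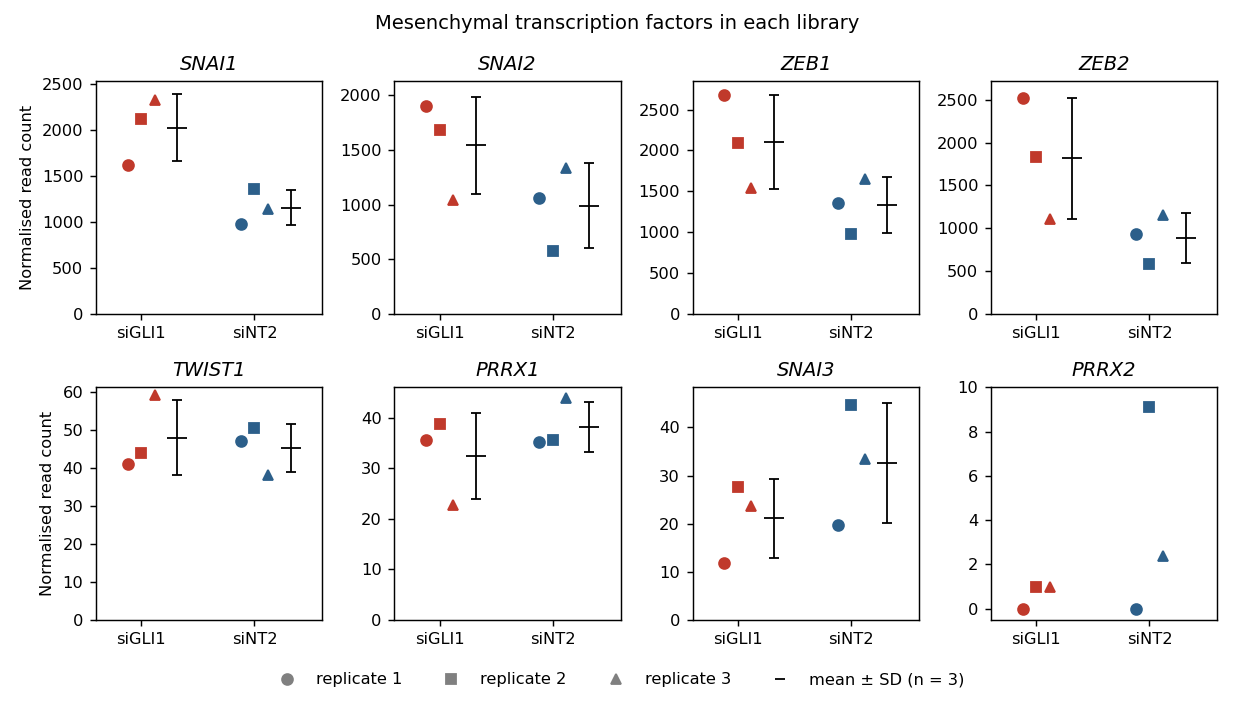
Normalised read counts of 8 members in each library, siGLI1 libraries at left in red and siNT2 libraries at right in blue, with a marker shape per replicate and the group mean and SD (n = 3) in black except for PRRX2; TWIST2, at 0 reads in all 6 libraries, is left out. The siGLI1 points of SNAI1 all lie above its siNT2 points, those of SNAI2, ZEB1 and ZEB2 overlap through siGLI1 replicate 3, and the lower row of genes stays below 60 normalised read counts.

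SNAI1 (Entrez 6615, chromosome 20) encodes Snail, the founding repressor of CDH1 and a gene that GLI1 is known to induce in epithelial cells. It had 1616.7, 2120.3 and 2326.9 normalised read counts in siGLI1 libraries and 969.6, 1353.0 and 1135.5 in siNT2 libraries. The groups did not overlap: the lowest siGLI1 library was above the highest siNT2 library. SNAI1 averaged 2021 ± 365 in siGLI1 cells and 1153 ± 192 in siNT2 cells (SD, n = 3 each), and rose by 0.81 on the log2 scale, or 1.75-fold, with a standard error of 0.19, a 95% confidence interval of 0.37 to 1.24 and a limma adjusted p of 0.0281. Of the tested genes, 17.4% had groups that did not overlap with siGLI1 higher and 18.8% with siGLI1 lower, and of the 7 members 1 and 0 did. The SNAI1 call was lost without siGLI1 replicate 2 (limma adjusted p = 0.13), without siNT2 replicate 1 (0.116) and without siNT2 replicate 3 (0.0777), with log2 fold changes of 0.69 to 0.96 over all 6 leave-outs.

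SNAI2 (Entrez 6591) encodes Slug, the Snail relative best known in muscle precursors and rhabdomyosarcoma. It had 1900.7, 1686.8 and 1041.0 normalised read counts in siGLI1 libraries and 1061.8, 570.0 and 1339.7 in siNT2 libraries. siGLI1 replicates 1 and 2 were above all siNT2 libraries, but siGLI1 replicate 3 lay below siNT2 replicates 1 and 3, so the groups overlapped. SNAI2 averaged 1543 ± 448 in siGLI1 cells and 991 ± 390 in siNT2 cells (SD, n = 3 each). The log2 fold change of 0.68 had a 95% confidence interval of -0.12 to 1.48 and did not pass the test (limma adjusted p = 0.222).

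SNAI3 (Entrez 333929), the least studied Snail gene, was barely transcribed. It had 11.9, 27.6 and 23.7 normalised read counts in siGLI1 libraries, from 11, 27 and 24 reads, and 19.8, 44.6 and 33.5 in siNT2 libraries, from 18, 44 and 42 reads. Replicate 1 was the lowest library in both groups, and the groups overlapped. The log2 fold change of -0.61 had a 95% confidence interval of -1.56 to 0.33 (limma adjusted p = 0.34), and its sign turned under voom. SNAI3 shares 163 of its 1732 exonic bases with SNAI3-AS1 on the opposite strand (GENCODE 29), and whether the counting used strand is not given in the sources used here. SNAI3-AS1 itself was at 43.2, 56.2 and 57.3 in siGLI1 libraries and 56.0, 95.3 and 68.6 in siNT2 libraries, which did not pass the test (log2 fold change -0.46, limma adjusted p = 0.251).

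ZEB1 (Entrez 6935, chromosome 10) encodes the zinc finger and homeobox repressor that acts with CtBP. It had 2680.4, 2093.7 and 1537.8 normalised read counts in siGLI1 libraries and 1357.2, 976.7 and 1653.9 in siNT2 libraries. siGLI1 replicate 3 was the only library of its group inside the siNT2 range, just below siNT2 replicate 3. ZEB1 averaged 2104 ± 571 in siGLI1 cells and 1329 ± 339 in siNT2 cells (SD, n = 3 each). The difference of 0.66 on the log2 scale, with a 95% confidence interval of 0.06 to 1.25, did not pass the table-wide threshold (limma adjusted p = 0.125), though it did without siGLI1 replicate 3 (log2 fold change 0.87, limma adjusted p = 0.0398). Its antisense neighbour ZEB1-AS1, which overlaps 366 of 8650 exonic bases of ZEB1, had 162.0, 140.1 and 127.4 in siGLI1 libraries and 124.1, 85.2 and 113.2 in siNT2 libraries. All siGLI1 values were above the siNT2 values, yet the log2 fold change of 0.42 did not pass the test (limma adjusted p = 0.197).

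ZEB2 (Entrez 9839, chromosome 2), the SMAD-binding ZEB protein, had the largest log2 fold change of the 7 tested members in this fit, though SNAI1 was ahead of it with voom (1.05 for SNAI1 and 0.99 for ZEB2), with the GC trend removed, and without siGLI1 replicate 1 or siNT2 replicate 2. It had 2516.3, 1833.0 and 1104.2 normalised read counts in siGLI1 libraries and 931.2, 576.1 and 1151.5 in siNT2 libraries. Again siGLI1 replicate 3 alone fell inside the siNT2 range. ZEB2 averaged 1818 ± 706 in siGLI1 cells and 886 ± 290 in siNT2 cells (SD, n = 3 each), a ratio of 2.02 on the fitted scale. The log2 fold change of 1.01, with a 95% confidence interval of 0.21 to 1.82, missed the threshold with limma (adjusted p = 0.0896) and passed it with DESeq2 (adjusted p = 0.0176) and in limma without siGLI1 replicate 3 (log2 fold change 1.33, adjusted p = 0.0209). Of all genes, 10.5% were called higher with DESeq2, 7.57% with edgeR and 26.2% with voom, beside 2, 1 and 4 of the 7 members. The 4 voom calls were SNAI1, SNAI2, ZEB1 and ZEB2. ZEB2-AS1 overlaps 1299 of the 25058 exonic bases of ZEB2 on the opposite strand.

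TWIST1 (Entrez 7291, chromosome 7), a regulator of cranial mesenchyme and limb muscle precursors, had 41.0, 44.0 and 59.3 normalised read counts in siGLI1 libraries and 47.2, 50.7 and 38.3 in siNT2 libraries. The values interleaved. Their means were 48.1 ± 9.79 in siGLI1 cells and 45.4 ± 6.41 in siNT2 cells (SD, n = 3 each), and the log2 fold change of 0.07 had a 95% confidence interval of -0.46 to 0.60 (limma adjusted p = 0.855). Its sign turned without siGLI1 replicate 3 (log2 fold change -0.08), without siNT2 replicate 3 (-0.04) and under voom (-0.04), and its exons overlap an unnamed antisense gene (GENCODE 29). TWIST2 (Entrez 117581), known as a block to myogenic differentiation, had 0 reads in all 6 libraries, which allows up to 3 reads or 2.39 to 3.29 normalised read counts per library, counting error only.

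PRRX1 (Entrez 5396, chromosome 1), the limb bud and fibroblast homeobox factor, had 35.6, 38.8 and 22.7 normalised read counts in siGLI1 libraries and 35.1, 35.5 and 43.9 in siNT2 libraries. siGLI1 replicate 3 was the lowest of the 6 and siNT2 replicate 3 the highest, with the others close together. The log2 fold change of -0.26 had a 95% confidence interval of -0.87 to 0.35 (limma adjusted p = 0.544), and its sign turned under voom. PRRX2 (Entrez 51450) had 0, 1 and 1 reads in siGLI1 libraries and 0, 9 and 3 in siNT2 libraries. At such counts PRRX2 is close to undetected, and it was not tested.

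**Figure D2:**
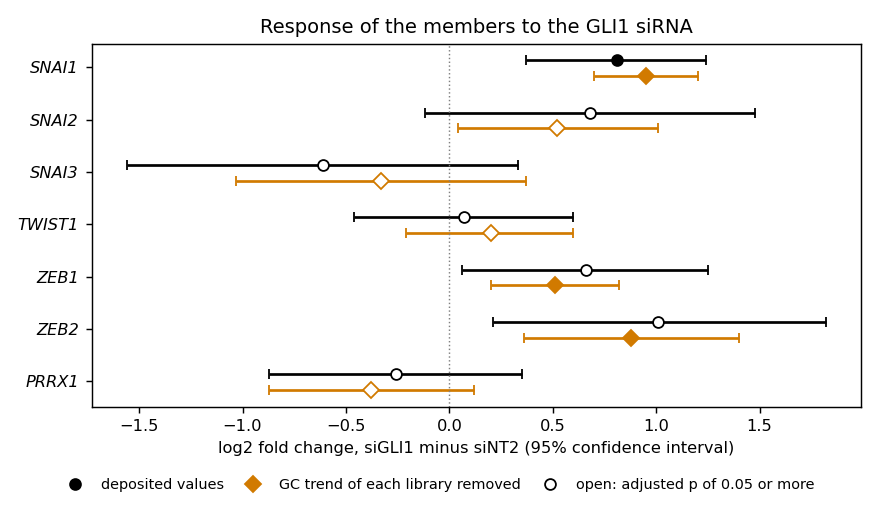
Log2 fold change of the 7 tested members, siGLI1 minus siNT2, with 95% confidence intervals, from the deposited values (circles) and after each library's trend with transcript GC content was removed (diamonds); filled markers passed an adjusted p of 0.05. SNAI1 is filled in both, ZEB1 and ZEB2 are filled only among the diamonds, and the intervals of SNAI3, TWIST1 and PRRX1 span 0 in both.

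Set per length, the members fell into an abundant and a scarce set. Divided by the median annotated transcript length, ZEB1 had 1524 ± 414 normalised read counts per kilobase in siGLI1 cells and 963 ± 246 in siNT2 cells, and SNAI1 had 1199 ± 217 in siGLI1 cells and 684 ± 114 in siNT2 cells (SD, n = 3 each). ZEB2 had 757 ± 294 in siGLI1 cells and 369 ± 121 in siNT2 cells, and SNAI2 had 695 ± 202 in siGLI1 cells and 446 ± 176 in siNT2 cells. Within siGLI1 and within siNT2 cells, neighbours in this order, ZEB1 and SNAI1 or ZEB2 and SNAI2, had overlapping library ranges. The scarce members per kilobase were TWIST1 at 81.6 in siGLI1 and 77.1 in siNT2 cells, PRRX1 at 58.1 in siGLI1 and 68.5 in siNT2 cells, and SNAI3 at 12.2 in siGLI1 and 18.8 in siNT2 cells. The order within both sets depends on the length used: with the longest transcript, 6267 bases for ZEB1 and 9583 for ZEB2, SNAI1 came first and ZEB1 after SNAI2 in both groups. With that length TWIST1 was at 28.9 in siGLI1 and 27.3 in siNT2 cells, and PRRX1, at 7.56 in siGLI1 and 8.91 in siNT2 cells, came below SNAI3. By unscaled siNT2 mean, ZEB1 stood at the 81.8th percentile of tested genes, SNAI1 at the 78.9th, SNAI2 at the 75.6th and ZEB2 at the 72.8th, against the 13.9th to 17.9th for SNAI3, PRRX1 and TWIST1.

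Ratios within a library compare paralogues without the scaling between libraries. ZEB1 to ZEB2 was 1.07, 1.14 and 1.39 in siGLI1 libraries and 1.46, 1.69 and 1.44 in siNT2 libraries. ZEB1 was the larger value in all 6 libraries, and its excess over ZEB2 was smaller in each siGLI1 library than in all 3 siNT2 libraries. The log2 ratio averaged 0.25 ± 0.20 in siGLI1 cells and 0.61 ± 0.13 in siNT2 cells (SD, n = 3 each), a difference of -0.36 with an exact two-sided permutation p of 0.1, the smallest that 3 against 3 libraries can give (Benjamini-Hochberg adjusted p = 0.2 over 2 pairs). It ranged from -0.47 to -0.27 over the leave-outs and was -0.37 with the GC trend removed.

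SNAI1 to SNAI2 was 0.851, 1.26 and 2.23 in siGLI1 libraries and 0.913, 2.37 and 0.848 in siNT2 libraries. These ratios overlapped fully, and which Snail gene had more reads depended on the library. The log2 ratio differed by 0.13 between groups (exact two-sided permutation p = 0.9), from -0.24 to 0.60 over the leave-outs. With the GC trend removed the difference was 0.43 (exact two-sided permutation p = 0.3), from 0.28 to 0.69 over the leave-outs. With TWIST2 at 0 and PRRX2 near it, the TWIST and PRRX pairs gave no ratio.

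**Figure D3:**
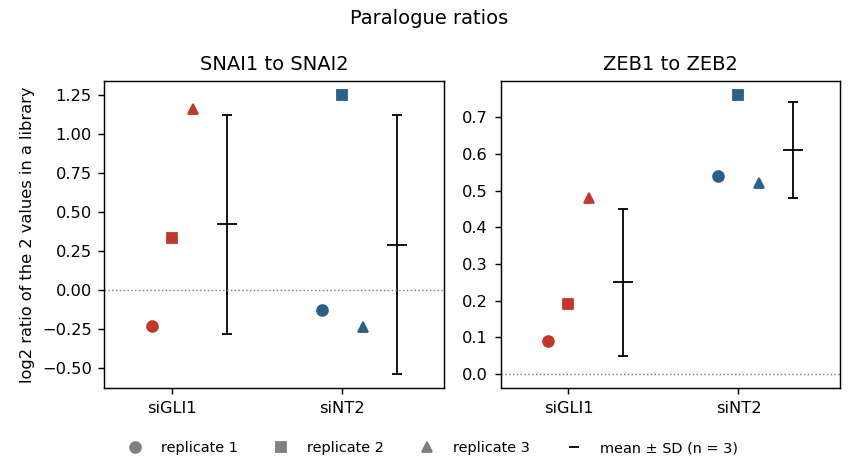
Log2 ratio of SNAI1 to SNAI2 (left panel) and of ZEB1 to ZEB2 (right panel) in each library, siGLI1 at left and siNT2 at right in each panel, with a marker shape per replicate and the mean and SD (n = 3) in black. The ZEB ratio lies between 0.09 and 0.48 in siGLI1 libraries and between 0.52 and 0.76 in siNT2 libraries, while the Snail ratio spreads over more than 1 log2 unit within each group.

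The spread between replicates had a shared shape in SNAI2, ZEB1 and ZEB2. These genes ranked their libraries identically, replicate 1 above 2 above 3 among siGLI1 libraries and replicate 3 above 1 above 2 among siNT2 libraries. The highest library was 1.83 times the lowest in siGLI1 and 2.35 times in siNT2 cells for SNAI2, 1.74 times in siGLI1 and 1.69 times in siNT2 cells for ZEB1, and 2.28 times in siGLI1 and 2.0 times in siNT2 cells for ZEB2. SNAI1 ran the other way in siGLI1 cells, replicate 3 highest and 1 lowest, and in siNT2 cells it was highest in replicate 2, where the other 3 were lowest. The scarce members TWIST1, SNAI3 and PRRX1 did not share the order of SNAI2, ZEB1 and ZEB2.

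Transcript GC content moved with this spread in SNAI1, SNAI2, ZEB1 and ZEB2. It was 42.2% for SNAI2, 43.0% for ZEB1 and 44.0% for ZEB2, but 58.2% for SNAI1, against a median of 50.2% over tested genes. PRRX1, at 45.1% and with few reads, had a different library order. Over 14438 tested genes with a GC value, the deviation of a library from its group mean had a Spearman correlation with GC of -0.67, -0.29 and 0.72 in siGLI1 replicates 1, 2 and 3 and of -0.48, 0.68 and -0.58 in siNT2 replicates 1, 2 and 3. siGLI1 replicate 3 and siNT2 replicate 2 stood apart from the rest in sign. The points are genes that share a library, so these values are descriptions.

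**Figure D4:**
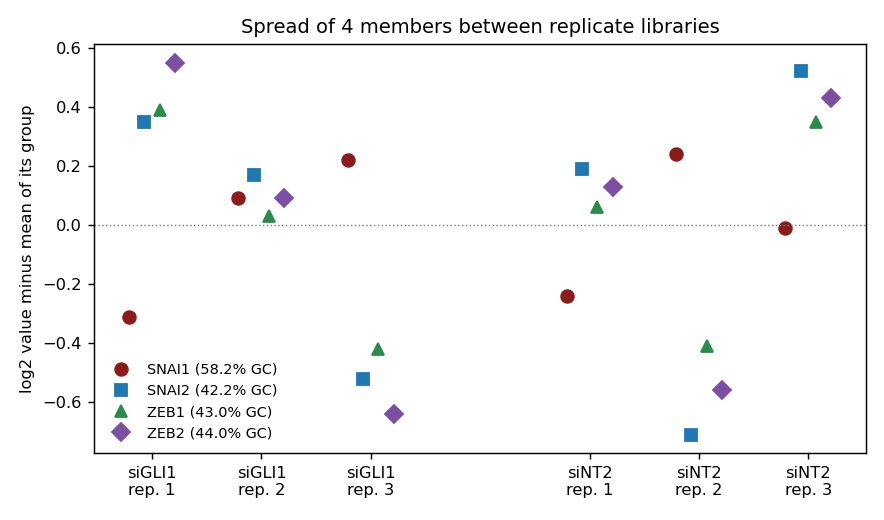
Log2 value of SNAI1, SNAI2, ZEB1 and ZEB2 in each library minus the mean of its own group, siGLI1 libraries at left and siNT2 libraries at right, with transcript GC content in the legend. SNAI2, ZEB1 and ZEB2 are lowest in siGLI1 replicate 3 and siNT2 replicate 2, where SNAI1 is above its group mean.

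With each library's GC trend removed, which also removes any group difference that follows GC content, 3 of the 7 members were called higher, SNAI1, ZEB1 and ZEB2, and 0 lower, beside 15.8% and 16.3% of all genes. ZEB1 was then at 11.13, 10.91 and 10.75 log2 units in siGLI1 libraries and 10.41, 10.22 and 10.62 in siNT2 libraries. ZEB2 was at 11.06, 10.74 and 10.25 in siGLI1 libraries and 9.87, 9.43 and 10.11 in siNT2 libraries. Neither gene's groups overlapped any more, but the share of all genes with separate groups on this corrected scale was not computed. The log2 fold change was 0.51 for ZEB1 (95% confidence interval 0.20 to 0.82, limma adjusted p = 0.0221) and 0.88 for ZEB2 (0.36 to 1.40, limma adjusted p = 0.0189). SNAI1 was at 10.93, 11.14 and 11.04 in siGLI1 libraries and 9.92, 10.13 and 10.21 in siNT2 libraries, a wider gap than before (log2 fold change 0.95, limma adjusted p = 0.000466). SNAI2, at 10.61, 10.59 and 10.20 in siGLI1 and 10.06, 9.46 and 10.32 in siNT2 libraries, still overlapped and did not pass (log2 fold change 0.52, limma adjusted p = 0.0956).

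The genes most like the 4 abundant members over the 6 libraries were found by Pearson r on the log2 scale among all genes with a mean of 50 or more. They were RAB43 (r = 0.996) and DCAF8 (0.995) for SNAI1, SEC23B (1.0) and KCTD18 (0.998) for SNAI2, ALDH1B1 and PRKX (0.999 each) for ZEB1, and TMEM30B and YIPF6 (0.999 each) for ZEB2. Transcript GC content was 61.2% for RAB43, 52.6% for DCAF8, 47.1% for SEC23B and 45.6% for KCTD18. It was 57.5% for ALDH1B1, 46.3% for PRKX, 61.9% for TMEM30B and 45.6% for YIPF6. Genes of high GC content were thus among those most like ZEB1 and ZEB2. None of the 8 passed the test between groups with limma, with log2 fold changes of 0.20 to 0.83. They were picked for profiles like those of the members over the same libraries, so this outcome is not a separate result. With 6 libraries and 12657 genes compared, such r values are descriptions.

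Most genes for proteins that pair with the members, or that they recruit, did not pass the test: of 21 tested, 0 were called higher and 3 lower, with a median log2 fold change of -0.14. The counts for this and the following lists stand beside 7.21% of all genes called higher and 8.0% lower, or 15.8% and 16.3% with the GC trend removed. The 3 that fell were ID1, ID3 and SUV39H1. ID1 and ID3 sequester the E proteins that TWIST needs, and SUV39H1 is a histone methyltransferase that Snail recruits. ID1 had 255.9, 376.2 and 475.1 normalised read counts in siGLI1 libraries and 599.6, 707.9 and 720.9 in siNT2 libraries, and fell by 0.91 on the log2 scale (limma adjusted p = 0.0369). ID3 had 1275.4, 1425.1 and 1445.9 in siGLI1 libraries and 2229.1, 1987.9 and 3487.2 in siNT2 libraries, and fell by 0.85 (limma adjusted p = 0.0358). SUV39H1 averaged 280 ± 47.5 in siGLI1 cells and 493 ± 28.0 in siNT2 cells (SD, n = 3 each) and fell by 0.82 (limma adjusted p = 0.0159). In each of these genes every siGLI1 library was below every siNT2 library.

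The E protein TCF4, with 1137.2, 920.1 and 666.7 in siGLI1 libraries and 537.0, 475.7 and 578.9 in siNT2 libraries, had separate groups but missed the threshold (log2 fold change 0.74, limma adjusted p = 0.0509). It was called higher with edgeR (adjusted p = 0.0422), DESeq2 (0.00758) and voom (0.000202). The same held in limma with the GC trend removed (log2 fold change 0.67, adjusted p = 0.00941). TCF4 was not called in limma with a replicate block, that is, with the replicate number in the model (adjusted p = 0.116). Nor was it called in 5 of the 6 leave-outs. The calls of ID1, ID3 and SUV39H1 were also lost with the replicate block (limma adjusted p = 0.0558, 0.0672 and 0.0683). The E proteins TCF3 and TCF12, named after their values were seen, were not called and differed in direction. Their log2 fold changes were -0.44 for TCF3 and 0.979 for TCF12 (limma adjusted p = 0.169 and 0.0652). With the GC trend removed, 3 genes of the partner list were called higher and 6 lower. Leaving out siGLI1 replicate 2 or siNT2 replicate 1 ended the calls of ID1, ID3 and SUV39H1, at adjusted p of 0.0709 to 0.127. Those of ID1 and ID3 also ended without siGLI1 replicate 1 (0.0635 and 0.0819) or siNT2 replicate 3 (0.103 and 0.0556), and that of ID1 without siNT2 replicate 2 (0.0841).

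Snail protein is short-lived, and of 16 tested genes that control its stability 2 rose and 1 fell (median log2 fold change -0.08), and with the GC trend removed 3 were called higher and 4 lower. FBXO11, a ubiquitin ligase subunit that marks Snail for degradation, averaged 2289 ± 187 in siGLI1 cells and 1407 ± 134 in siNT2 cells (SD, n = 3 each) and rose by 0.70 on the log2 scale (limma adjusted p = 0.0143). LOXL2, a lysyl oxidase relative known to stabilise Snail, had 1395.3, 1448.6 and 1565.4 in siGLI1 libraries and 807.1, 815.4 and 1080.5 in siNT2 libraries, and rose by 0.72 (limma adjusted p = 0.0216). USP27X, a deubiquitinase that protects Snail, averaged 45.8 ± 7.85 in siGLI1 cells and 83.2 ± 3.64 in siNT2 cells (SD, n = 3 each) and fell by 0.86 (limma adjusted p = 0.0263). The called genes thus include both protectors and a degrader of Snail, with protectors in both directions. BTRC, the best known Snail ubiquitin ligase subunit, averaged 1245 ± 75 in siGLI1 cells and 1641 ± 99 in siNT2 cells without passing (log2 fold change -0.40, limma adjusted p = 0.0682). It was called lower with the GC trend removed (log2 fold change -0.51, limma adjusted p = 0.00384), with DESeq2 (adjusted p = 0.0376) and with voom (adjusted p = 0.00139). BTRC was not called with edgeR (adjusted p = 0.0729), in limma with a replicate block (0.224) or in any leave-out (0.099 to 0.228). Without siGLI1 replicate 2 or siNT2 replicate 1 the calls of FBXO11, LOXL2 and USP27X were lost (adjusted p 0.0673 to 0.124). LOXL2 and USP27X were also lost without siNT2 replicate 2 (0.0588 and 0.0717), and USP27X also without siGLI1 replicate 1 (0.0661) or siNT2 replicate 3 (0.0747). A replicate block ended the calls of FBXO11, LOXL2 and USP27X as well (limma adjusted p = 0.0787, 0.0695 and 0.0877).

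A list of 20 tested genes covered signals known to induce the members and included the inhibitor SMAD7. Of the 20, 2 rose and 2 fell, with a median log2 fold change of 0.18. With the GC trend removed 5 were called higher and 3 lower. TGFB3, a TGF-beta ligand, had 397.4, 329.2 and 372.3 normalised read counts in siGLI1 libraries and 141.7, 142.0 and 112.4 in siNT2 libraries. It rose by 1.47 on the log2 scale (limma adjusted p = 0.00209). SMAD7, the feedback inhibitor that TGF-beta signalling induces, had 124.2, 149.3 and 114.6 in siGLI1 libraries and 57.1, 48.7 and 83.7 in siNT2 libraries and rose by 1.05 (limma adjusted p = 0.0264). FGFR1, a growth factor receptor, averaged 752 ± 99 in siGLI1 cells and 1753 ± 139 in siNT2 cells (SD, n = 3 each) and fell by 1.22 (limma adjusted p = 0.00244). HMGA2, a chromatin protein that cooperates with SMADs at SNAI1 in epithelial cells, averaged 1434 ± 152 in siGLI1 cells and 2360 ± 409 in siNT2 cells and fell by 0.71 (limma adjusted p = 0.0275). The TGF-beta ligands TGFB1 and TGFB2, the receptors TGFBR1 and TGFBR2, and SMAD2, SMAD3 and SMAD4, all of the same list and named after their values were seen, were not called. TGFB3 and FGFR1 were called in all 6 leave-outs, whereas SMAD7 and HMGA2 were not without siGLI1 replicate 2 (0.127 and 0.105) or siNT2 replicate 1 (0.103 and 0.101), SMAD7 also not without siGLI1 replicate 1 (0.0524) or siNT2 replicate 2 (0.064), and HMGA2 also not without siNT2 replicate 3 (0.0785) or with the GC trend removed (0.058). Under a replicate block TGFB3 and FGFR1 stayed called (limma adjusted p = 0.017 and 0.0212), but SMAD7 and HMGA2 did not (0.0796 and 0.0997).

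Of 33 epithelial genes that Snail and ZEB are known to repress, 15 were tested, and 8 had at most 3 reads in every library. CDH1, encoding E-cadherin, had 2.2, 0.0 and 1.0 normalised read counts in siGLI1 libraries and 0.0, 1.0 and 0.0 in siNT2 libraries. CRB3, whose E-box window is printed above, had 0.0, 0.0 and 1.0 in siGLI1 libraries and 1.1, 0.0 and 0.0 in siNT2 libraries. At this depth a change in either could not be detected. KRT19, ESRP1 and the transcription factor OVOL2, named like CDH1 and CRB3 after their values were seen, stayed at or below 1.0 in all 6 libraries.

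Of the 15 epithelial genes tested, 1 rose and 1 fell, and the median log2 fold change was -0.45. OCLN, encoding the tight junction protein occludin, had 90.7, 79.7 and 47.4 normalised read counts in siGLI1 libraries and 229.5, 130.8 and 300.6 in siNT2 libraries. All siGLI1 libraries were below all siNT2 libraries, and OCLN fell by 1.56 on the log2 scale (limma adjusted p = 0.0263). SPINT2, a serine protease inhibitor, had 18.4, 22.5 and 19.8 in siGLI1 libraries and 7.7, 11.2 and 6.4 in siNT2 libraries and rose by 1.20 (limma adjusted p = 0.0322). EPCAM, an adhesion gene named after its values were seen, had 35.6, 37.8 and 26.7 in siGLI1 libraries and 51.6, 45.6 and 59.0 in siNT2 libraries and did not pass (log2 fold change -0.63, limma adjusted p = 0.0994). Its groups did not overlap, and with the GC trend removed it was called lower (log2 fold change -0.76, limma adjusted p = 0.0142). EPCAM was called in 0 of the 6 leave-outs. With the GC trend removed, 1 of the 15 was called higher and 4 lower. Without siGLI1 replicate 2, siNT2 replicate 1 or siNT2 replicate 3 the OCLN and SPINT2 calls were lost (adjusted p 0.0779 to 0.141), SPINT2 also without siGLI1 replicate 1 (0.0661) or replicate 3 (0.0526). Both calls were also lost with a replicate block (limma adjusted p = 0.0642 for OCLN and 0.0748 for SPINT2).

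Transcription factors that oppose the members in epithelia included a called gene in each direction. Of 12 listed, 5 were tested, with 1 higher, 1 lower and a median log2 fold change of -0.47, and the GC-corrected counts were also 1 and 1. KLF5, a zinc finger factor of epithelial progenitors, averaged 260 ± 45.7 normalised read counts in siGLI1 cells and 108 ± 25.8 in siNT2 cells (SD, n = 3 each) and rose by 1.27 on the log2 scale (limma adjusted p = 0.011). FOXA2, a forkhead factor of endoderm and floor plate and a known Hedgehog target, had 19.4, 46.0 and 52.3 in siGLI1 libraries and 120.8, 125.8 and 146.7 in siNT2 libraries and fell by 1.83 (limma adjusted p = 0.0156). Both genes had groups that did not overlap. Without siGLI1 replicate 2 or siNT2 replicate 1 both calls were lost (adjusted p 0.0529 to 0.0677), and that of FOXA2 also without siNT2 replicate 3 (0.0549). Both held with a replicate block (limma adjusted p = 0.048 for KLF5 and 0.0238 for FOXA2).

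Several matrix genes of the mesenchymal effector list were higher after the GLI1 siRNA. Of 29 listed, 23 were tested, 5 rose and 0 fell, with a median log2 fold change of 0.21; with the GC trend removed 7 were called higher and 2 lower. TNC, encoding the matrix protein tenascin-C, had 16397.9, 13963.9 and 13050.7 normalised read counts in siGLI1 libraries and 6326.0, 5209.0 and 8695.2 in siNT2 libraries and rose by 1.13 on the log2 scale (limma adjusted p = 0.0108). SPARC, a collagen-binding matrix protein, averaged 7403 ± 1042 in siGLI1 cells and 3910 ± 468 in siNT2 cells (SD, n = 3 each) and rose by 0.92 (limma adjusted p = 0.00925). COL1A2, a fibrillar collagen chain, was near the limit of detection in siNT2 cells, with 31.3, 36.8 and 30.6 in siGLI1 libraries and 3.3, 2.0 and 8.0 in siNT2 libraries. Its log2 fold change of 2.79 with limma (adjusted p = 0.00593) became 1.74 with a pseudocount of 8. COL5A2, a further called gene named after its values were seen, rose by 0.76 (limma adjusted p = 0.0244).

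The best known mesenchymal genes were not among the 5. VIM, the intermediate filament vimentin, averaged 27941 ± 1476 in siGLI1 cells and 21534 ± 1251 in siNT2 cells (SD, n = 3 each) and missed the threshold (log2 fold change 0.38, limma adjusted p = 0.0609). Its groups did not overlap, and with the GC trend removed it was called higher (log2 fold change 0.41, limma adjusted p = 0.0146). VIM was called in 0 of the 6 leave-outs. CDH2, encoding N-cadherin, and FN1, encoding fibronectin, had log2 fold changes of 0.17 and 0.35 (limma adjusted p = 0.625 and 0.381), and all 3 are named after their values were seen. COL1A2 stayed called in all 6 leave-outs, TNC, SPARC and COL5A2 were lost without siGLI1 replicate 2 (adjusted p 0.0579 to 0.12), TNC and COL5A2 also without siNT2 replicate 1 (0.0541 and 0.104), and COL5A2 also without siNT2 replicate 2 (0.0631). The calls of COL1A2, TNC and SPARC held with a replicate block (limma adjusted p = 0.0205, 0.0314 and 0.0362).

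**Figure D5:**
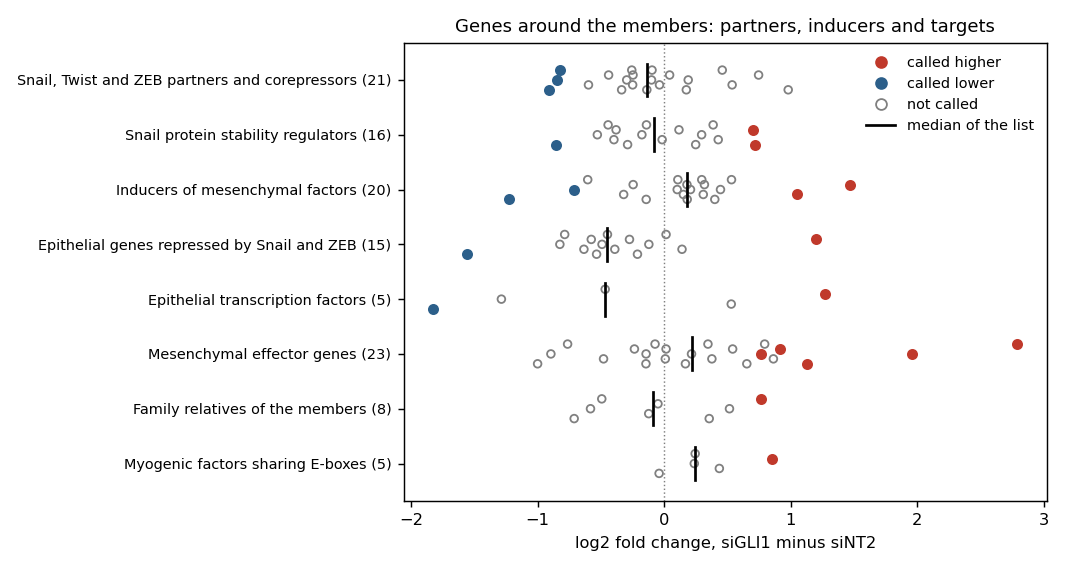
Log2 fold change, siGLI1 minus siNT2, of each tested gene in 8 lists around the members, with the number tested in parentheses; red and blue points were called higher and lower at an adjusted p under 0.05, open points were not called, and the black bar is the median of the list. The mesenchymal effectors include 5 red and 0 blue points, the partner list 0 red and 3 blue, and most epithelial genes lie left of 0 as open points. The E-box label of the myogenic list does not apply to its MEF2 genes.

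Of 17 family relatives of the members 8 were tested, and ALX1, a homeobox factor of craniofacial mesenchyme akin to PRRX1, was the single called gene. With the GC trend removed 2 relatives were called higher and 1 lower. It averaged 251 ± 17.6 normalised read counts in siGLI1 cells and 148 ± 17.2 in siNT2 cells (SD, n = 3 each) and rose by 0.76 on the log2 scale (limma adjusted p = 0.0196). Of 8 myogenic factors, 5 were tested, and MEF2C, a muscle differentiation factor, rose by 0.85 (limma adjusted p = 0.0394). MEF2C had 1919.1, 1688.9 and 1195.0 in siGLI1 libraries and 814.8, 739.4 and 1086.1 in siNT2 libraries. MYOG and MYOD1 had log2 fold changes of 0.24 and -0.04 and did not pass (limma adjusted p = 0.36 and 0.915), MYOD1 being named after its values were seen. With the GC trend removed 3 of the 5 myogenic factors were called higher and 0 lower, MYOG among them (log2 fold change 0.38, limma adjusted p = 0.013), and MYOG also passed with voom (adjusted p = 0.0263). The ALX1 and MEF2C calls were lost without siGLI1 replicate 1, siGLI1 replicate 2 or siNT2 replicate 1 (adjusted p 0.0598 to 0.162), ALX1 also without siNT2 replicate 3 (0.0648) and MEF2C also without siNT2 replicate 2 (0.096). A replicate block ended both calls (limma adjusted p = 0.0793 for ALX1 and 0.111 for MEF2C).

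Markers of other cell types were measured because, in bulk RNA, fewer cells of a type and less RNA per cell cannot be told apart. Epithelial markers, 3 of 8 tested and 0 called, summed to 103 to 116 normalised read counts in siGLI1 libraries and 133 to 162 in siNT2 libraries. With the GC trend removed, EPCAM among them was called lower. Fibroblast markers, 6 of 8 tested with COL1A2 and LUM called higher, summed to 1069 to 1212 in siGLI1 libraries and 1028 to 1419 in siNT2 libraries. Endothelial markers, 2 of 6 tested with PECAM1 called higher, summed to 164 to 218 in siGLI1 libraries and 53.4 to 117 in siNT2 libraries. Blood cell markers, 2 of 8 tested with ITGAM called higher, summed to 49.7 to 122 in siGLI1 libraries and 26.4 to 35.5 in siNT2 libraries, while HBB was at 0 everywhere and PTPRC at 1.1, 0.0 and 3.0 in siGLI1 libraries and 0.0 in each siNT2 library. Neural markers, 4 of 8 tested with SYT1 and AQP4 called higher, summed to 409 to 635 in siGLI1 libraries and 288 to 459 in siNT2 libraries, with SNAP25 at 0 everywhere. Of 8 muscle line markers tested, DES, CHRNA1 and MYH3 were called higher, and with the GC trend removed 4 were called higher and 1 lower. The LUM call was lost in every leave-out (limma adjusted p 0.0555 to 0.195). That of AQP4 was lost in every leave-out except that of siGLI1 replicate 3 (0.0599 to 0.151). ITGAM, SYT1, CHRNA1 and MYH3 were lost without siGLI1 replicate 2 or siNT2 replicate 1 (0.0523 to 0.0948), and DES without siNT2 replicate 1 (0.0535). The part of these markers in the differences of SNAI1, ZEB1 and ZEB2 was not tested.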

How the data were processed

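RNA-seq libraries of 3 siGLI1 and 3 siNT2 samples of RMS13 were analysed from a table of normalised counts. Per the submitters' processing notes, reads were handled with Bowtie2 2.3.3.1, Trim Galore 0.4.5, bcl2fastq, DESeq2 2.11.40.6 and featureCounts of Subread 1.6.4, on hg19; for the annotation, the strand setting and multi-mapping reads, the rule was not given in the sources used here. The deposited values are a signal, read counts divided by a size factor per library: 100.0% of values came back as whole reads within 0.01 reads. Of the genes, 92.2% matched a symbol.

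The main test was limma 3.58.1 (trend) in R 4.3.3 on log2(value + 1), so folds of low genes are understated, over 15622 genes with a mean of 10 or more, with Benjamini-Hochberg adjusted p under 0.05. The whole-read recovery allowed edgeR 4.0.16 (1182 genes higher, 1200 lower) and DESeq2 1.42.0 as alternatives; others were voom with library weights, pseudocounts of 0.5 and 8, other filters and scaling, removal of each library's loess trend (span 0.5) with transcript GC content (14438 genes, 92.4%), and leaving out libraries. Confidence intervals are limma's, from the spread between libraries, and floors cover counting error only. 3′ UTRs and lengths come from GENCODE 29.

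The members and gene lists were chosen with earlier results of these data known. Named genes are the members, GLI1, up to 4 genes of smallest p per list, and 2 genes most like each abundant member. Any other protein-coding gene of these lists is marked as chosen after its values were seen. The marker lists had no such rule. Their called genes are named, and HBB, PTPRC and SNAP25 were chosen after their values were seen. A gene that the rule would name among the mesenchymal effectors is not reported here. Same-numbered libraries of the 2 groups share the first part of a description code, which the labels do not explain. The numbers were not taken to pair the libraries. Deviations from the group mean correlated at 0.49, -0.11 and -0.61 for replicates 1, 2 and 3. These correlations cannot decide whether the libraries are paired, because the deviations also moved with GC content.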

Additional observations from a re-analysis of the deposited data

How the results depend on the processing

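SNAI1, SNAI2, ZEB1 and ZEB2 were positive under every alternative run, and 0 members were called lower under any. Genes called higher numbered 1127 and lower 1249. These counts were 4090 and 4092 with voom, 2277 and 2347 with the GC trend removed, and 2236 and 2356 when siGLI1 replicate 3 and siNT2 replicate 2 were both left out, a choice made after seeing the data. Leaving out 1 library gave 283 to 1562 higher and 358 to 1705 lower, the lowest pair without siGLI1 replicate 2. Dropping siGLI1 replicate 1 gave 711 higher and 795 lower, dropping siNT2 replicate 1 gave 414 and 449, dropping siNT2 replicate 2 gave 750 and 810, and dropping siNT2 replicate 3 gave 640 and 681. Members called higher numbered 1. They were 2 with DESeq2, 4 with voom, 3 with the GC trend removed, 0 to 3 over the leave-outs, and 4 without both libraries. Same-numbered libraries share a replicate number and the first part of a description code whose meaning is not given; with a replicate block on that number, 462 genes were called higher, 508 lower and 0 members, SNAI1 having an adjusted p of 0.0545 with limma; with the replicate block and the GC trend removed, 1704 were higher and 2 members. Signs turned for SNAI3 (0.18) and PRRX1 (0.05) with voom, and for TWIST1 with voom (-0.04), over the leave-outs (-0.08 to 0.18) and without both libraries (-0.00145). Over 42 named genes and 746 comparisons, 617 kept direction and side of the threshold, 73 lost the call, 50 gained it and 6 turned sign. The cause was not tested. Depth limits TWIST2, PRRX2, CDH1 and CRB3, each near 0 reads.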
